A study of Mus musculus with 14 samples.

Results

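The nuclear-encoded genes of the oxidative phosphorylation complexes were measured in multipotent progenitors (MPP) sorted from the bone marrow of old and young mice. A gene was a member if its symbol in the array annotation began with Nduf, Uqcr, Atp5 or Cox4 to Cox8, or was Sdha, Sdhb, Sdhc or Sdhd, and if its probe set carried that symbol alone. This rule gave 88 of 19155 genes. They divided into 33 genes of complex I, 4 of complex II, 8 of complex III, 19 of complex IV, 17 of complex V and 7 assembly factors of complex I (Ndufaf1 to Ndufaf7), which help to build the complex without being part of it. Ndufa4, Ndufa4l2 and Cox7a2l were counted with complex IV. Another 3 probe sets were left out because they carried several symbols, those of Ndufs5 with its pseudogene, Cox7c with Gm12338 and Ndufb4 with Ndufb4b, while Ndufs5 was also measured by a probe set of its own. Many subunits have processed pseudogenes, and how much these add to a probe set was not tested.

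Oxidative phosphorylation is the last stage of respiration and takes place in the inner mitochondrial membrane. Complex I takes electrons from NADH and complex II from succinate. Ubiquinone carries them to complex III and cytochrome c carries them on to complex IV, which gives them to oxygen. Complexes I, III and IV pump protons, and complex V, the ATP synthase, lets the protons flow back and makes ATP. Hematopoietic stem cells at rest are known for a low use of this pathway and cycling progenitors for a higher use. Some subunits of complexes I, III, IV and V are encoded in mitochondrial DNA, and all of complex II is encoded in the nucleus. None of the 13 mitochondrially encoded subunits was measured here.

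All mice were wild-type C57BL/6, and each array carried amplified RNA of 20000 marrow cells that had been sorted through the same gate again. The groups were old MPP4 (24 months, n = 3), young MPP4 (8 to 10 weeks, n = 5), old MPP3 (24 months, n = 3) and young MPP3 (8 to 10 weeks, n = 3). MPP4 are lymphoid-biased and were Lin-/cKit+/Sca-1+ cells positive for Flk2, the product of Flt3, whereas MPP3 are myeloid-biased and were negative for Flk2, positive for CD48 and, per the labels, negative for CD150. Arrays of a group were biological replicates, and the number and sex of the mice behind each array were not given in the sources used here. The young arrays had also been deposited with an earlier series, so that series and age cannot be told apart. The normalized value of a probe set is its rank on the array put on a negative natural log scale, so that the top of the ranking is stretched and differences are never folds. Cox6b1, the brightest member, averaged 4.55, which is the upper 1.05% of probe sets, and Ndufb3 averaged 1.25, the upper 28.7%.

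Array medians lay between 0.662 and 0.675, and correlations between arrays ran from 0.948 to 0.994. Flt3, part of the gate, was at 2.77 to 3.53 on MPP4 arrays and at 1.42 to 2.20 on MPP3 arrays, while Slamf1, which encodes CD150, stayed at or under 0.251. Clustering on the dimmest 1 in 3 probe sets gave 2 groups of arrays that no label describes. The first, called set 1, had all 6 old arrays and 3 young ones (replicate 1 of MPP3 with replicates 1 and 2 of MPP4), and the other 5 young arrays made up set 2. Xist, which marks female cells, was at 0.126 to 0.215 on the old arrays and above 1 on 4 young ones (MPP3 array 1 with MPP4 arrays 1, 4 and 5). Summed myeloid progenitor markers (7 of 7 measured) were at 9.53 to 9.79 in old MPP4, 8.08 to 9.77 in young MPP4, 13.6 to 20.7 in old MPP3 and 11.7 to 14.5 in young MPP3. Mature neutrophil markers (7 of 7 measured) summed to 7.52 to 11.5 in old MPP3 and 4.87 to 6.92 in young MPP3, with Ltf and Mmp9 at or under 0.302 on each of these arrays. In MPP4 the neutrophil markers summed to 2.99 to 4.46 in old and 2.67 to 4.19 in young mice. Proliferation genes (3 of 5 measured) summed to 6.93 to 7.28 in old MPP4, 5.78 to 6.90 in young MPP4, 6.66 to 7.55 in old MPP3 and 6.26 to 6.63 in young MPP3, without overlap between ages in either population. Taken singly, only Cdk1 did not overlap between ages in MPP4 (2.05 to 2.21 in old, 1.86 to 2.00 in young). In MPP3 only Aurka did not (1.98 to 2.23 in old, 1.62 to 1.80 in young), and Mki67 overlapped in both populations. T and NK cell markers (5 of 5 measured) summed to 3.91 to 4.32 in old MPP4, 3.49 to 4.41 in young MPP4, 4.76 to 5.25 in old MPP3 and 4.10 to 4.4 in young MPP3, without overlap between ages in MPP3 alone. The brightest of them, Nkg7, was at 2.58 to 3.23 in old MPP3 and 1.93 to 2.61 in young MPP3. Cd3d went the other way, at 0.108 to 0.139 in old MPP3 and 0.159 to 0.204 in young MPP3. Cd3e, Cd4 and Cd8a overlapped between these groups, as did Nkg7. Erythroid markers (4 of 7 measured) summed to 1.99 to 2.22 in old MPP4 and 3.02 to 3.93 in old MPP3. In young mice they summed to 1.93 to 3.38 in MPP4 and 3.41 to 4.83 in MPP3. The sums did not overlap between populations at either age. Taken singly, Klf1 and Alas2 overlapped between the old populations, and each of the measured genes overlapped between the young ones. The part of all these marker differences in the results below was not tested.

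Most subunits were bright. Of the 88 members, 82 lay above the array median on every array, and the median member stood at the 94.2 percentile of all genes by mean value. Over all 88 members the mean was 2.31 ± 0.0277 in old MPP4 (SD, n = 3), 2.33 ± 0.0292 in young MPP4 (SD, n = 5), 2.34 ± 0.0862 in old MPP3 and 2.37 ± 0.0340 in young MPP3 (SD, n = 3 each). The 8 isoforms that are known mainly from other tissues or from hypoxia (Cox4i2, Cox6a2, Cox6b2, Cox7a1, Cox7b2, Cox8b, Cox8c and Ndufa4l2) averaged 0.732 ± 0.0374 in old MPP4 (SD, n = 3), 0.730 ± 0.0603 in young MPP4 (SD, n = 5), 0.775 ± 0.0184 in old MPP3 and 0.783 ± 0.0735 in young MPP3 (SD, n = 3 each). In both measures the arrays overlapped between the groups of each comparison. In these bulk samples, fewer cells of a type and less RNA per cell cannot be told apart.

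Promoters of 4 members are shown because results below turn on these genes. Ndufa11 was lower on every MPP4 array than on every MPP3 array, Cox6a1 was one of 2 members that passed the threshold once the array set was a term, Ndufb7 had the smallest p of the age comparison in MPP4, and Ndufaf7 was higher on every old array than on every young array. Each line runs 5′ to 3′ on the strand of the gene, from 150 bases before the transcription start to 20 after it, as given by RefSeq on GRCm38.p6. Capitals mark 3 motifs, searched on both strands: GCGCA and GCGC with 1 base of any kind between them, the site of nuclear respiratory factor 1 (NRF1); CCGGAAG, bound by ETS factors such as the respiratory factor GABP; and AANATGGCG, the site of YY1.
Ndufa11, chr17:56717612-56717781, plus strand: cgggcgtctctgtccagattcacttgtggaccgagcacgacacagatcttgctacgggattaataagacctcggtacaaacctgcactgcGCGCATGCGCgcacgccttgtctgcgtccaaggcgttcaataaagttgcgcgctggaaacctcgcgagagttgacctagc
Cox6a1, chr5:115348939-115349108, minus strand: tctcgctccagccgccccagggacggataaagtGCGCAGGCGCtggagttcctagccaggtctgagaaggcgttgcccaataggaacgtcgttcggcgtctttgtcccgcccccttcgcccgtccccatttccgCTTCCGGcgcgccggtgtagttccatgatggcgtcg
Ndufb7, chr8:83566608-83566777, plus strand: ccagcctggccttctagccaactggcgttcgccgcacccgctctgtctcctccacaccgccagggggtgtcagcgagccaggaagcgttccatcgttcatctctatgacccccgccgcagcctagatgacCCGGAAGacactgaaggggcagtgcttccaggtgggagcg
Ndufaf7, chr17:78936985-78937154, plus strand: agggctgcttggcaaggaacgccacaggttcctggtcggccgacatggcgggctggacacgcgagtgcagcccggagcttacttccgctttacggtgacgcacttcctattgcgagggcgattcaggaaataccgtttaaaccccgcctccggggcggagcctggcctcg
Ndufa11 carried 1 NRF1 motif, Cox6a1 carried 1 NRF1 and 1 ETS motif in the stretch shown with another NRF1 motif farther upstream, and Ndufb7 carried 1 ETS motif. None of the 3 motifs lay in the window of Ndufaf7. RefSeq windows of 300 bases (250 before the start and 50 after) matched 72 of the 88 members, with 77 windows. The NRF1 motif was in 24.7% of the members' windows and in 4.6% of all 32851 windows, the ETS motif in 23.4% and 8.86%, and the YY1 motif in 13% and 2.38%. The median GC content was 57.7% in the members' windows and 52.7% in all windows. YY1 motifs stood in 7 of 32 complex I windows, in 3 of 18 complex V windows and in none of the windows of the other complexes. The 4 windows of the isoforms named above held none of the 3 motifs. A match is a run of letters and not a measured binding site.

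The first question was whether age shifts these genes within a population. No member passed the adjusted threshold of 0.05 (limma, Benjamini-Hochberg over all 19155 genes) between old and young MPP4, where 0% of all genes did, or between old and young MPP3, where again 0% did. The smallest adjusted p of a member was 0.193 in MPP4 and 0.471 in MPP3. At an unadjusted p under 0.05, 1 member was higher and 9 were lower in old MPP4, against 4.50% and 5.27% of all genes. In old MPP3, 3 members were higher and 6 were lower, against 3.44% and 4.75% of all genes. The median difference, old minus young, was -0.0104 in MPP4 (37 of 88 above 0) and -0.0145 in MPP3 (39 of 88 above 0), beside -1.71e-04 and 1.83e-04 over all genes. These counts moved with single arrays. With 1 array left out in turn, 1 to 4 members were higher and 5 to 21 were lower in old MPP4, the most being lower without young MPP4 replicate 1 (4 higher and 21 lower, against 7.61% and 7.37% of all genes). In old MPP3, 1 to 12 were higher and 5 to 14 were lower. Without young MPP3 replicate 1 the counts were 12 higher and 9 lower (7.66% and 8.25% of all genes), and without old MPP3 replicate 2 they were 3 and 14, with a median difference of -0.0780. With array quality weights, 4 members passed between old and young MPP4 (Ndufa13, Ndufaf7, Ndufb7 and Uqcrq) among 304 genes, and none between old and young MPP3.

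The second question was whether the 2 populations differ at a given age. No member passed between MPP4 and MPP3 of old mice, where 0% of all genes did, or of young mice, where 0.131% did. The smallest adjusted p of a member was 0.203 in old mice and 0.0877 in young mice. At an unadjusted p under 0.05, 3 members were higher and 6 were lower in old MPP4 than in old MPP3 (6.19% and 3.64% of all genes). In young mice 6 members were higher and 14 were lower in MPP4 (5.48% and 5.53% of all genes). The median difference, MPP4 minus MPP3, was -0.0191 in old mice and -0.0336 in young mice, beside -0.00149 and -1.30e-04 over all genes. With 1 array left out in turn, 2 to 7 members were higher and 3 to 11 were lower in old MPP4 than in old MPP3, and 4 to 9 were higher and 8 to 16 were lower in young MPP4 than in young MPP3. Without old MPP3 replicate 2, 7 were higher and 4 were lower between the old populations, with a median difference of 0.00785, and without old MPP3 replicate 3, 4 were higher and 11 were lower. The young comparison was sensitive to the fit, since 2 members (Ndufb10 and Cox6a1) passed among 271 genes with the array set as a term, and 16 members passed among 1808 genes with array quality weights. The difference between the age differences of MPP4 and MPP3 passed for no member and for 0% of all genes, with a smallest adjusted p of 0.524, and for 5 members among 574 genes with array quality weights. At an unadjusted p under 0.05, 4 members had a difference above 0 and 3 one below 0 (3.44% and 2.83% of all genes), or 3 to 8 and 2 to 7 with 1 array left out. It was above 0 for 46 of 88 members and for 48.7% of all genes.

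The 95% interval lay within 0.5 of 0 for 78 of 88 members between old and young MPP4 (18203 of all 19155 genes), for 67 between old and young MPP3 (16612 of all genes), for 78 between old MPP4 and old MPP3 (17226 of all genes) and for 72 between young MPP4 and young MPP3 (17579 of all genes). It did so for 56 members in the difference between age differences (15523 of all genes). These shares were not compared with those of genes of like brightness. By complex, the shares ran from 4 of 8 members of complex III between old and young MPP3 to all 17 of complex V between old and young MPP4 and all 4 of complex II between the old populations. They ran in the difference between age differences from 2 of 7 assembly factors to 15 of 17 members of complex V. Each age comparison shares arrays with each population comparison, so their values are given side by side and their lists are not compared.

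**Figure D1:**
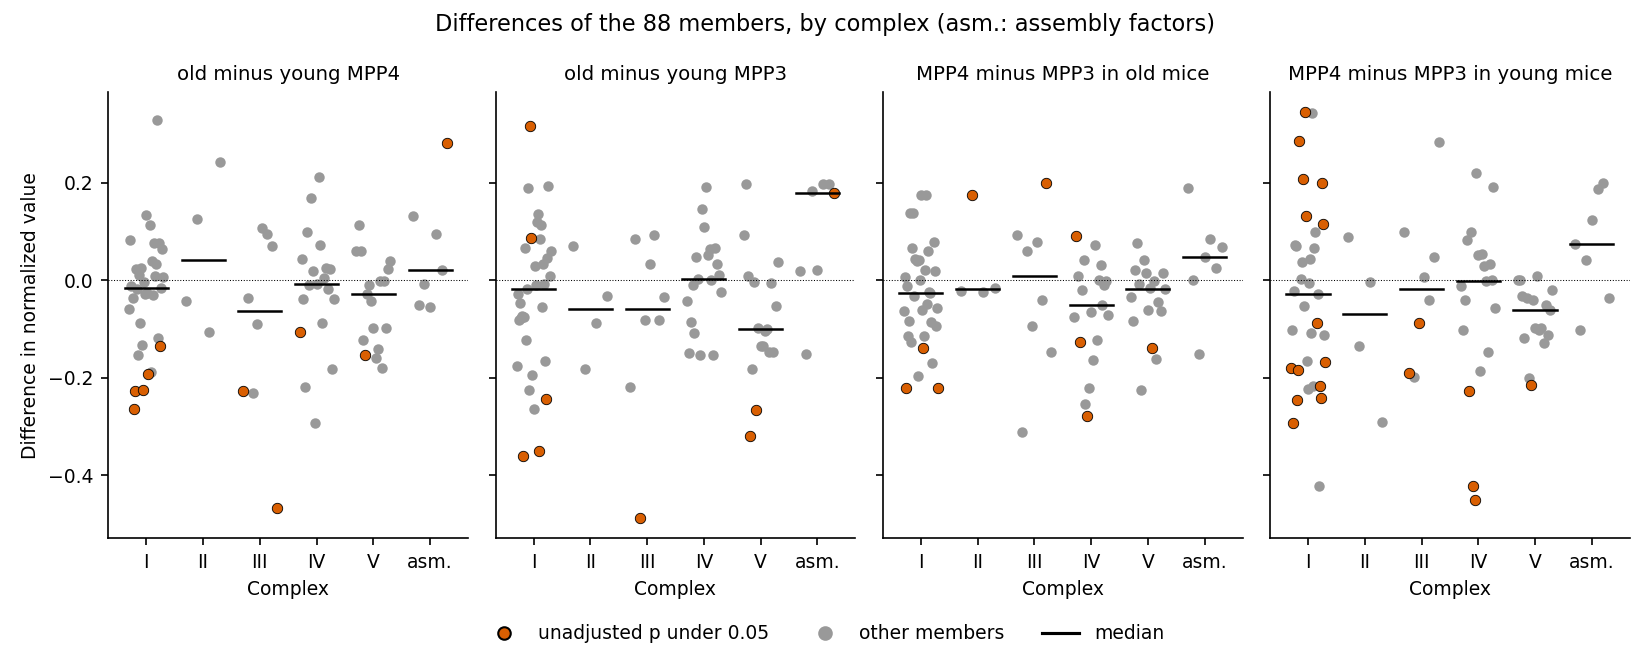
Difference in normalized value (vertical axis) of each of the 88 members in 4 comparisons, grouped by complex (horizontal axis, with the 7 assembly factors as a group of their own). Orange points have an unadjusted p under 0.05, grey points do not, and bars are medians. None of the points passed the adjusted threshold, and the medians over all members lie between -0.0336 and -0.0104.

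Complex I was the largest group. Its mean was 2.21 ± 0.0427 in old MPP4 (SD, n = 3), 2.24 ± 0.0479 in young MPP4 (SD, n = 5), 2.24 ± 0.104 in old MPP3 and 2.27 ± 0.0418 in young MPP3 (SD, n = 3 each). The arrays overlapped in each comparison. The 6 core subunits measured carry the flavin and iron-sulfur clusters along which electrons pass, or hold that chain in place. Ndufv1, the subunit that takes electrons from NADH, was at 1.68 ± 0.0154 in old MPP4, 1.70 ± 0.0796 in young MPP4, 1.77 ± 0.169 in old MPP3 and 1.58 ± 0.0443 in young MPP3 (SD). Its iron-sulfur partner Ndufv2 was at 2.47 ± 0.127 in old MPP4, 2.41 ± 0.124 in young MPP4, 2.53 ± 0.154 in old MPP3 and 2.52 ± 0.0653 in young MPP3 (SD). In both the groups overlapped in each comparison. Ndufs1, another iron-sulfur subunit of this arm, was at 1.80 to 1.84 in old MPP4, 1.25 to 1.99 in young MPP4, 1.53 to 1.93 in old MPP3 and 1.44 to 1.78 in young MPP3. Its lowest array was young MPP4 replicate 1, at 1.25, and its groups overlapped in each comparison.

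The other core subunits lie along the way to ubiquinone. Ndufs7, which holds the iron-sulfur cluster beside the ubiquinone site, was at 1.39, 1.37 and 1.38 in old MPP4, at 1.16, 1.43, 1.37, 1.33 and 1.23 in young MPP4, at 1.31, 1.42 and 1.17 in old MPP3 and at 1.53, 1.54 and 1.57 in young MPP3. The young MPP3 arrays were the highest, with no overlap with any other group. The difference was -0.243 for old minus young MPP3 (95% interval -0.415 to -0.0720, adjusted p = 0.511) and -0.242 for MPP4 minus MPP3 in young mice (-0.387 to -0.0968, adjusted p = 0.234), and these comparisons share the young MPP3 arrays. Ndufs8, another iron-sulfur subunit on the way to ubiquinone, was at 1.53, 1.63 and 1.63 in old MPP4, at 1.76, 1.69, 1.70, 1.74 and 1.78 in young MPP4, at 1.56, 1.83 and 1.35 in old MPP3 and at 1.52, 1.62 and 1.46 in young MPP3. Young MPP4 arrays lay above old MPP4 and above young MPP3 arrays, while the old MPP3 arrays spread from 1.35 to 1.83. The difference was -0.134 for old minus young MPP4 (adjusted p = 0.361) and 0.200 for MPP4 minus MPP3 in young mice (adjusted p = 0.154). Ndufs3, a core subunit of the same arm, was at 2.33 to 2.41 in young MPP4 and 2.45 to 2.50 in young MPP3, without overlap and with a difference of -0.0881 (adjusted p = 0.259).

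The 27 accessory subunits surround this core and are needed for its assembly and stability. Ndufb7, which lies on the intermembrane side of the membrane arm, was at 2.54, 2.56 and 2.55 in old MPP4, at 2.79, 2.70, 2.70, 2.78 and 2.73 in young MPP4, at 2.77, 2.70 and 2.59 in old MPP3 and at 2.65, 2.78 and 2.66 in young MPP3. The old MPP4 arrays lay together below all others. The difference was -0.193 for old minus young MPP4 (95% interval -0.261 to -0.124, unadjusted p = 2.42e-04, adjusted p = 0.193), and between -0.204 and -0.179 with any 1 array left out. Over its 18 alternatives the adjusted p ran from 0.0428 to 0.659. Ndufa13, also known as Grim-19, was at 1.43, 1.36 and 1.37 in old MPP4 and at 1.61, 1.46, 1.81, 1.69 and 1.69 in young MPP4. Ndufa2 was at 2.56, 2.52 and 2.51 in old MPP4 and at 2.88, 2.60, 2.86, 2.69 and 2.75 in young MPP4. In both genes the groups did not overlap, and the adjusted p was 0.374 for Ndufa13 and 0.394 for Ndufa2. Ndufb7, Ndufa13, Ndufa2 and Ndufs8 were the 4 members lower in old than in young MPP4 without overlap (4.01% of all genes), and 1 member, Ndufaf7, was higher (3.28%).

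Ndufb10, an accessory subunit of the membrane arm, had the smallest p of any member between the young populations and in the difference between the age differences. It was at 2.01, 2.05 and 2.31 in old MPP4, at 2.32, 2.40, 2.29, 2.45 and 2.29 in young MPP4, at 2.21, 2.40 and 2.35 in old MPP3 and at 1.91, 2.01 and 2.09 in young MPP3. Young MPP3 was the low group and overlapped neither with old MPP3 nor with young MPP4. The difference for MPP4 minus MPP3 in young mice was 0.345 (95% interval 0.217 to 0.472, adjusted p = 0.0877). The age difference was -0.225 in MPP4 (adjusted p = 0.447) and 0.317 in MPP3 (adjusted p = 0.488), so that they had opposite signs. The age difference in MPP4 minus that in MPP3 was -0.542 (95% interval -0.781 to -0.302, unadjusted p = 3.90e-04, adjusted p = 0.524). With the array set as a term, the young population difference was 0.347 (adjusted p = 0.0480), and over its 18 alternatives the adjusted p ran from 0.0186 to 0.457.

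Ndufa3 and Ndufa11, also accessory subunits of the membrane arm, had their highest means in young MPP3. Ndufa3 was at 2.07, 2.23 and 2.29 in old MPP4, at 2.16, 2.35, 2.16, 2.10 and 2.08 in young MPP4, at 1.95, 2.18 and 2.04 in old MPP3 and at 2.36, 2.40 and 2.48 in young MPP3. The young MPP3 arrays lay above all others, and the difference for old minus young MPP3 was -0.359 (95% interval -0.535 to -0.184, adjusted p = 0.471). Ndufa11, whose promoter with its NRF1 motif is printed above, was at 1.93, 2.08 and 2.01 in old MPP4, at 2.15, 2.09, 2.02, 1.94 and 1.88 in young MPP4, at 2.35, 2.16 and 2.18 in old MPP3 and at 2.28, 2.23 and 2.42 in young MPP3. It was the only member for which all 8 MPP4 arrays were below all 6 MPP3 arrays, as for 0.386% of all genes, with the highest MPP4 array at 2.15 and the lowest MPP3 array at 2.16, and no member was above in this way (0.465%). The difference for MPP4 minus MPP3 was -0.222 in old mice (95% interval -0.392 to -0.0516, adjusted p = 0.400) and -0.292 in young mice (-0.462 to -0.122, adjusted p = 0.224). Ndufv3, a small accessory subunit of the NADH-oxidising arm, had the smallest p of any member between the old populations. It was at 2.39, 2.31 and 2.36 in old MPP4 and at 2.55, 2.59 and 2.59 in old MPP3, without overlap and with a difference of -0.220 (95% interval -0.293 to -0.148, adjusted p = 0.203). In young mice it was at 2.25 to 2.47 in MPP4 and 2.42 to 2.64 in MPP3, and the arrays overlapped.

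Between young MPP4 and young MPP3 the complex I members stood on both sides. Those lower in MPP4 without overlap were Ndufa1, Ndufa3, Ndufa5, Ndufa11, Ndufs3 and Ndufs7, and those higher were Ndufa9, Ndufb10 and Ndufs8. With Cox6a1, Cox6b2, Ndufa4l2 and Uqcrc1 of the other complexes, 10 of 88 members were lower (3.72% of all genes) and 3 were higher (3.74%). Ndufa9, which sits near the ubiquinone site, was at 2.69 to 2.90 in young MPP4 and 2.47 to 2.68 in young MPP3 (adjusted p = 0.299). Ndufa5, an accessory subunit, was at 2.34 to 2.52 in young MPP4 and 2.54 to 2.73 in young MPP3 (adjusted p = 0.273). Both overlapped between the old populations. Ndufs6, Ndufa6, Ndufb11, Ndufv1 and Ndufv3 had an unadjusted p under 0.05 in young mice although their arrays overlapped. Ndufc2 (3.68 on average, the upper 2.51% of probe sets) and Ndufa1 (3.22, the upper 3.99%) had the highest values of the complex and Ndufb3 and Ndufc1 (1.16, the upper 31.5%) the lowest, although probe sets differ in brightness by design.

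**Figure D2:**
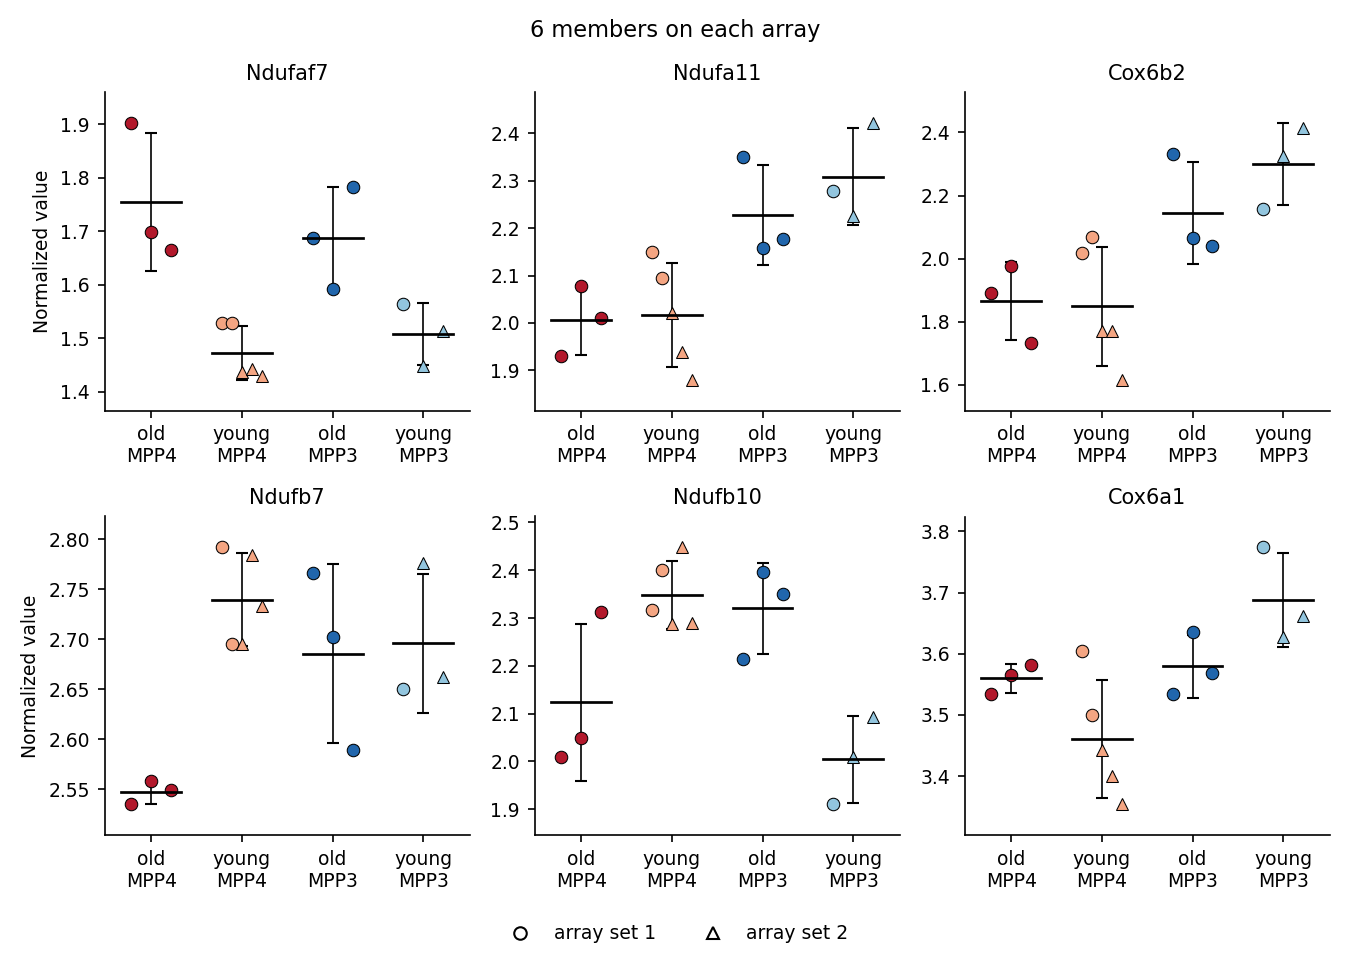
Normalized value (vertical axis) of 6 members on each array, by group (horizontal axis). Bars are means, error bars SD, circles arrays of set 1 and triangles arrays of set 2. Ndufaf7 is higher on the 6 old arrays (1.59 to 1.90) than on the 8 young arrays (1.43 to 1.56), Ndufa11 is lower on the 8 MPP4 arrays than on the 6 MPP3 arrays, and Ndufb7 is lowest on the 3 old MPP4 arrays.

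Complex II, succinate dehydrogenase, also works in the citric acid cycle. Its mean was 2.24 ± 0.0473 in old MPP4 (SD, n = 3), 2.18 ± 0.104 in young MPP4 (SD, n = 5), 2.21 ± 0.0881 in old MPP3 and 2.27 ± 0.145 in young MPP3 (SD, n = 3 each). The arrays overlapped in each comparison. Sdha, the flavoprotein that oxidises succinate, had the narrowest range of the 4, being at 2.70 to 2.75 in old MPP4, 2.68 to 2.89 in young MPP4, 2.74 to 2.75 in old MPP3 and 2.63 to 2.72 in young MPP3. Its old MPP3 arrays lay above its young MPP3 arrays without overlap, by 0.0695 (95% interval -0.0124 to 0.151, adjusted p = 0.650). Sdhb, the iron-sulfur subunit, was at 2.32, 2.17 and 2.23 in old MPP4, at 2.20, 2.25, 2.14, 1.94 and 2.05 in young MPP4, at 1.98, 2.08 and 2.14 in old MPP3 and at 2.50, 2.02 and 2.23 in young MPP3. Old MPP4 lay above old MPP3 without overlap, by 0.174 (95% interval 0.0263 to 0.321, adjusted p = 0.444), while the young arrays of both populations overlapped. The difference of Sdhb for old minus young MPP3 was -0.183. It was -0.0576 without young MPP3 replicate 1, the highest of the 14 arrays, and -0.433 with the array set as a term. Sdhc and Sdhd anchor the enzyme in the membrane. Sdhc was at 2.39 to 2.80 over the 14 arrays and overlapped in each comparison. Sdhd was at 1.45 to 1.54 in old MPP4, 1.05 to 1.54 in young MPP4, 1.26 to 1.83 in old MPP3 and 1.38 to 1.71 in young MPP3, and its age difference in MPP4 was 0.244, or 0.0110 with the array set as a term.

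Complex III takes electrons from ubiquinol to cytochrome c. Its mean was 2.25 ± 0.0224 in old MPP4 (SD, n = 3), 2.35 ± 0.0477 in young MPP4 (SD, n = 5), 2.27 ± 0.178 in old MPP3 and 2.36 ± 0.0713 in young MPP3 (SD, n = 3 each). On single arrays the mean was 2.255, 2.228 and 2.273 in old MPP4 and 2.368, 2.283, 2.374, 2.320 and 2.402 in young MPP4, without overlap and with a difference of -0.0972. The young MPP4 means of 2.368 and 2.283 were those of set 1. Uqcr10, an accessory subunit, had the smallest p of the complex in this comparison. Its difference was -0.227 (adjusted p = 0.482), and between -0.316 and -0.164 over its 18 alternatives. Uqcrq, also an accessory subunit, was at 2.36, 2.38 and 2.48 in old MPP4. In young MPP4 it was at 2.50, 2.47, 3.14, 3.10 and 3.16, where the 3 high values were those of set 2. The age difference of Uqcrq in MPP4 was -0.466 (adjusted p = 0.506), and -0.0757 with the array set as a term. Uqcrb, another accessory subunit, divided the young arrays by set as well, with 1.95 to 2.20 on young arrays of set 1, 2.50 to 2.89 on set 2 and 1.98 to 2.26 on the old arrays. Its age difference in MPP3 was -0.487 (95% interval -0.955 to -0.0196, adjusted p = 0.594), and -0.0962 with the array set as a term.

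Among the members, the core subunits of complex III differed less. Cyc1, which encodes cytochrome c1 of complex III, does not match the rule and was counted with the electron carriers below. Its difference was -0.296 for old minus young MPP4 (adjusted p = 0.506) and 0.138 for old minus young MPP3 (adjusted p = 0.745). Uqcrc1 was at 1.67 to 1.81 in old MPP4, 1.72 to 1.87 in young MPP4, 1.63 to 2.10 in old MPP3 and 1.89 to 1.91 in young MPP3, and the young populations did not overlap (-0.0871, adjusted p = 0.429). Uqcrfs1, the Rieske iron-sulfur protein, was at 1.89 to 2.16 in old MPP4, 1.79 to 2.19 in young MPP4, 1.94 to 2.12 in old MPP3 and 1.93 to 1.99 in young MPP3, and overlapped in each comparison. Uqcrc2 was at 2.53 to 2.66 in old MPP4 and 2.49 to 2.57 in old MPP3, and divided the young arrays by set (2.66 to 2.74 on set 1 and 2.31 to 2.43 on set 2). Uqcrh, the hinge protein that works where cytochrome c docks, was at 3.70, 3.63 and 3.60 in old MPP4 and at 3.43, 3.50 and 3.41 in old MPP3. The groups did not overlap, and the difference was 0.200 (95% interval 0.101 to 0.298, adjusted p = 0.291). Uqcr11, a small subunit, was at 1.59, 1.59 and 1.48 in old MPP4 and at 1.68, 2.23 and 1.68 in old MPP3, without overlap. Its difference was -0.311 with an interval that held 0 (-0.730 to 0.108), and -0.126 without old MPP3 replicate 2.

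**Figure D3:**
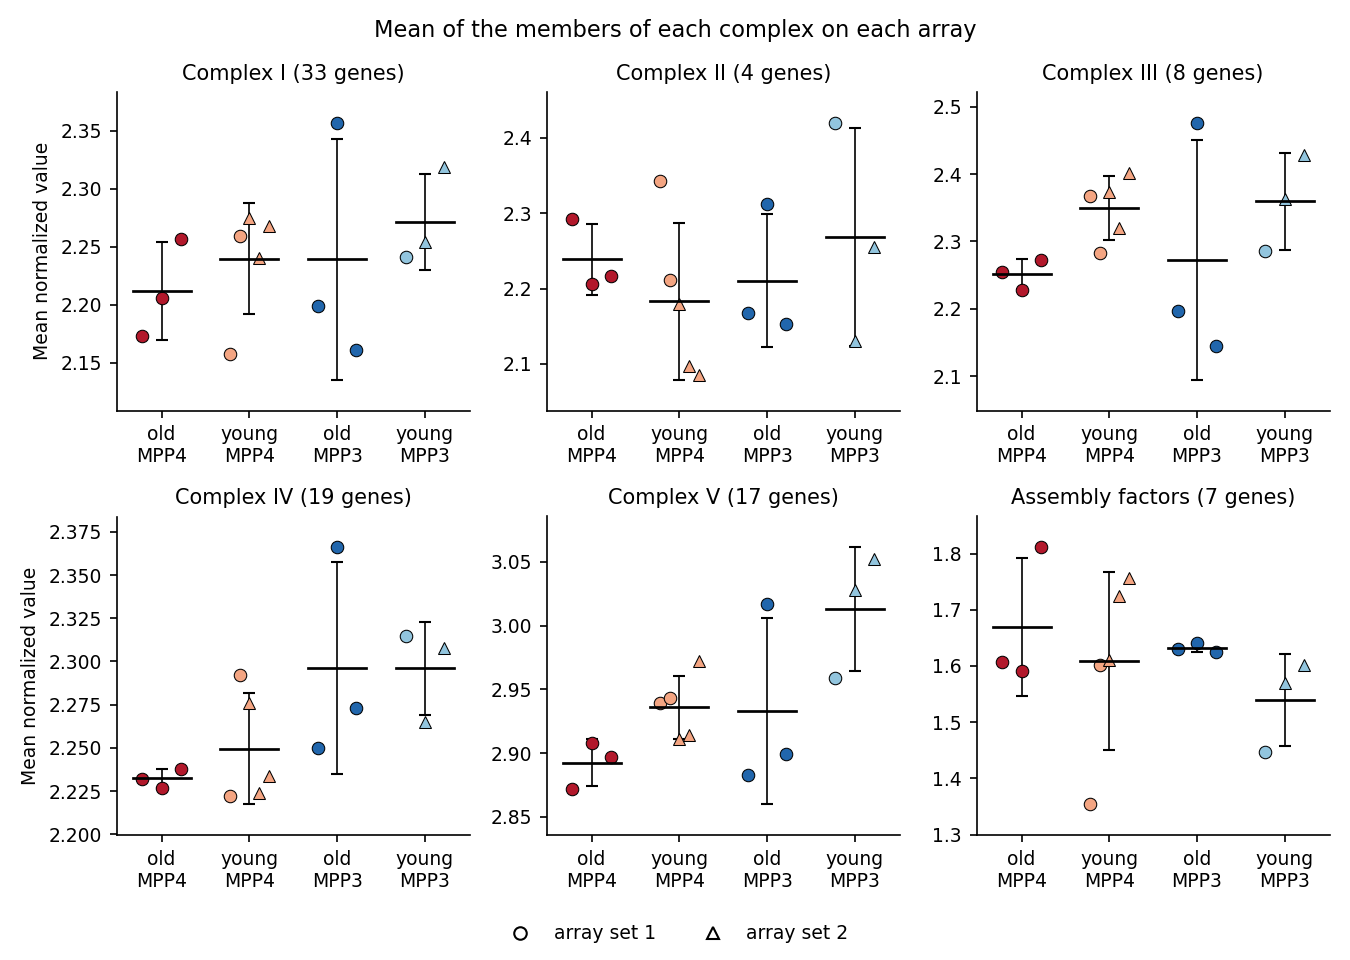
Mean normalized value (vertical axis) of the members of each complex on each array, by group (horizontal axis). Bars are group means, error bars SD, circles arrays of set 1 and triangles arrays of set 2. The complex III and V means of old MPP4 lie below those of young MPP4 without overlap. Of single genes, 4.01% did so, and shares for means over several genes were not computed. Old MPP3 replicate 2 is the highest old MPP3 array in each of the 6 panels.

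Complex IV, cytochrome c oxidase, reduces oxygen to water and has isoforms that differ by tissue. Its mean was 2.23 ± 0.00555 in old MPP4 (SD, n = 3), 2.25 ± 0.0322 in young MPP4 (SD, n = 5), 2.30 ± 0.0617 in old MPP3 and 2.30 ± 0.0276 in young MPP3 (SD, n = 3 each). The old MPP4 arrays (2.227 to 2.238) lay below the old MPP3 arrays (2.250 to 2.366), with a difference of -0.0639. Of single genes, 7.60% were lower in this way. Among the ubiquitous subunits, Cox4i1, a regulatory subunit, was at 3.26 to 3.39 in old MPP4, 3.33 to 3.50 in young MPP4, 3.32 to 3.56 in old MPP3 and 3.42 to 3.47 in young MPP3, and overlapped in each comparison. Cox5a was at 2.43 to 2.71 in old MPP4 and 2.48 to 2.64 in old MPP3, and divided the young arrays by set, with 2.24 to 2.52 on set 1 and 2.62 to 2.90 on set 2. Cox5b was at 3.40, 3.45 and 3.45 in old MPP4 and at 3.58, 3.49 and 3.61 in old MPP3, without overlap and with a difference of -0.126 (95% interval -0.220 to -0.0326, adjusted p = 0.394). Cox7a2 was at 2.51, 2.65 and 2.60 in old MPP4 and at 2.68, 2.88 and 2.70 in old MPP3, also without overlap (adjusted p = 0.544). Cox6c (3.93 to 4.69 over the 14 arrays), Cox7b (2.98 to 3.48), Cox7a2l (3.11 to 3.36) and Ndufa4 (3.41 to 3.88) overlapped in each of the 4 comparisons.

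Cox6a1 and Cox6b1, the ubiquitous forms of 2 small subunits, had an unadjusted p under 0.05 between the young populations. Cox6a1, whose promoter with its NRF1 and ETS motifs is printed above, was at 3.53, 3.57 and 3.58 in old MPP4, at 3.60, 3.50, 3.44, 3.40 and 3.35 in young MPP4, at 3.53, 3.64 and 3.57 in old MPP3 and at 3.77, 3.63 and 3.66 in young MPP3. The young MPP4 arrays lay below the young MPP3 arrays. The young population difference was -0.228 (95% interval -0.372 to -0.0829, adjusted p = 0.244). With the array set as a term it was -0.237 (adjusted p = 0.0358), and over its 18 alternatives the adjusted p ran from 0.0184 to 0.501. Cox6b1 was at 4.34 to 4.59 in old MPP4, 4.10 to 4.82 in young MPP4, 4.46 to 5.30 in old MPP3 and 4.63 to 4.91 in young MPP3, with its highest value on old MPP3 replicate 2. Its young population difference was -0.421 (adjusted p = 0.421), with overlap.

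Cox6b2, the form of the same subunit known from testis, had the highest mean of the isoforms from other tissues. It was at 1.89, 1.98 and 1.73 in old MPP4, at 2.02, 2.07, 1.77, 1.77 and 1.62 in young MPP4, at 2.33, 2.07 and 2.04 in old MPP3 and at 2.16, 2.33 and 2.42 in young MPP3. MPP4 lay below MPP3 without overlap at each age, although the highest young MPP4 array lay above the lowest old MPP3 array. The difference for MPP4 minus MPP3 was -0.279 in old mice (95% interval -0.542 to -0.0159, adjusted p = 0.491) and -0.451 in young mice (-0.720 to -0.183, adjusted p = 0.231). Ndufa4l2, a hypoxia-induced relative of Ndufa4, was at 0.185 to 0.259 in old MPP4, 0.222 to 0.285 in young MPP4, 0.270 to 0.356 in old MPP3 and 0.30 to 0.362 in young MPP3, below the array median throughout. Cox6b2, Ndufa11 and Ndufa4l2 were the 3 members lower in MPP4 without overlap at both ages, as were 0.684% of all genes, and no member was higher at both (0.856% of all genes). In old mice 10 members were lower in MPP4 without overlap (7.60% of all genes) and 4 were higher (9.03%), namely Sdhb, Uqcrh, Ndufaf1 and Cox4i2.

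The other isoforms ran from below the array median to moderately above it. Cox4i2, the form of Cox4i1 known from lung, was at 0.871 to 0.887 in old MPP4 and 0.776 to 0.814 in old MPP3, a difference of 0.0916 (adjusted p = 0.340). Cox6a2, Cox7a1 and Cox8b, known from heart and muscle, were at 0.942 to 1.35, 0.604 to 1.17 and 0.319 to 0.556 over the 14 arrays. Cox8c and Cox7b2, known from testis, were at 0.30 to 0.596 and 0.0309 to 0.0623. These 5 genes overlapped between groups in each comparison.

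Complex V makes ATP with a rotating F1 head on a membrane ring of c subunits. Its mean was 2.89 ± 0.0187 in old MPP4 (SD, n = 3), 2.94 ± 0.0248 in young MPP4 (SD, n = 5), 2.93 ± 0.0730 in old MPP3 and 3.01 ± 0.0483 in young MPP3 (SD, n = 3 each). Old MPP4 arrays (2.872, 2.908 and 2.897) lay below young MPP4 arrays (2.911 to 2.972) without overlap, with a difference of -0.0435. Of its 17 members, 12 had a negative difference for old minus young MPP4, 13 for old minus young MPP3, 12 for MPP4 minus MPP3 in old mice and 14 in young mice, while differences above 0 made up 49.8%, 50.1%, 48.3% and 49.9% of all genes in the same order of comparisons. The F1 subunits Atp5a1 and Atp5b, which form the catalytic ring, lay higher on set 1 than on set 2 in young mice, with Atp5b at 3.66 to 3.79 on set 1, 3.48 to 3.56 on set 2 and 3.65 to 3.87 on old arrays. Atp5c1, the central shaft, was at 3.39 to 3.45 in old MPP4, 3.27 to 3.44 in young MPP4, 3.37 to 3.43 in old MPP3 and 3.38 to 3.41 in young MPP3, and overlapped in each comparison.

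Atp5d, a subunit at the foot of that shaft, was at 1.93, 1.93 and 2.00 in old MPP4, at 2.17, 1.95, 2.10, 2.16 and 2.02 in young MPP4, at 1.85, 1.94 and 1.84 in old MPP3 and at 2.06, 2.20 and 2.33 in young MPP3. Old MPP3 lay below young MPP3 without overlap. The difference was -0.320 (95% interval -0.509 to -0.130, adjusted p = 0.50), and -0.186 with the array set as a term. The c ring is encoded by 3 genes, Atp5g1, Atp5g2 and Atp5g3. Atp5g1 was at 1.55 to 1.79 in old MPP4, 1.36 to 2.05 in young MPP4, 1.79 to 2.07 in old MPP3 and 1.84 to 1.96 in young MPP3. Atp5g2 was at 2.83, 2.89 and 2.76 in old MPP3 and at 2.95, 3.18 and 3.15 in young MPP3, without overlap. Its difference was -0.266 (adjusted p = 0.511), and -0.122 with the array set as a term. Atp5g3 stayed at 3.26 to 3.45 over the 14 arrays and, like Atp5g1, overlapped in each comparison. Atp5j2, a subunit of the membrane part, was at 3.57 to 3.75 in old MPP4 and 3.77 to 3.82 in old MPP3 (adjusted p = 0.474). Atp5e, the small epsilon subunit, was at 2.99 to 3.11 in old MPP4 and 3.11 to 3.33 in young MPP4 (adjusted p = 0.489). The stalk subunits Atp5o (2.39 to 2.81) and Atp5j (2.83 to 3.18) overlapped between groups in each comparison.

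The assembly factors held the one gene that divided the ages. Ndufaf7, a mitochondrial methyltransferase that is needed early in the assembly of complex I, was at 1.90, 1.70 and 1.67 in old MPP4, at 1.53, 1.53, 1.44, 1.44 and 1.43 in young MPP4, at 1.69, 1.59 and 1.78 in old MPP3 and at 1.56, 1.45 and 1.51 in young MPP3. All 6 old arrays were above all 8 young arrays, as for 0.235% of all genes, and Ndufaf7 was the only member of this kind, with none lower on all old arrays (0.329%). It follows that Ndufaf7 was also higher in old mice without overlap within both populations. No other member was (0.454% of all genes), and none was lower in both (0.705%). The difference for old minus young was 0.283 in MPP4 (95% interval 0.147 to 0.418, adjusted p = 0.315) and 0.179 in MPP3 (0.0283 to 0.330, adjusted p = 0.559). With the array set as a term it was 0.228 in MPP4 and 0.124 in MPP3. Young arrays of set 1 (1.53 to 1.56) lay above those of set 2 (1.43 to 1.51) and below all old arrays. In old against young MPP3, 5 members were higher without overlap (6.14% of all genes), namely Ndufa9, Ndufaf7, Ndufb10, Ndufb11 and Sdha, and 8 were lower (8.04%), namely Atp5d, Atp5g2, Cox4i2, Cox8a, Ndufa3, Ndufc1, Ndufs7 and Uqcrb.

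Of the 7 assembly factors, 6 had a higher mean in old than in young MPP3. The mean over the 7 was 1.63 ± 0.00755 in old MPP3 and 1.54 ± 0.0818 in young MPP3 (SD, n = 3 each), without overlap. Of single genes, 6.14% were higher in this way. In MPP4 the mean over the 7 was 1.67 ± 0.123 in old (SD, n = 3) and 1.61 ± 0.158 in young mice (SD, n = 5), with overlap. Ndufaf1, a factor of the membrane arm, was at 1.96 to 2.29 in old MPP4 and 1.84 to 1.93 in old MPP3 without overlap (adjusted p = 0.608). Ndufaf4 had the largest SD of all members in old MPP4 (0.429), with arrays at 1.88, 1.89 and 2.62. Ndufaf2 had the largest in young MPP4 (0.530), with arrays at 1.85, 2.53, 2.96, 3.07 and 3.11, of which replicate 1 was the lowest.

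Some arrays carried many of the extremes. Old MPP3 replicate 2 had an overall member mean of 2.438, against 2.295 and 2.283 on the other 2 old MPP3 arrays, and was the highest of the 14 arrays for 16 members (9.07% of all genes). Young MPP3 replicate 3 was the highest for 17 members (5.90% of all genes) and young MPP3 replicate 1 for 15 (12.3%). Old MPP3 replicate 2 also had the highest values of Mpo (6.03) and S100a8 (3.63), markers of myeloid progenitors and neutrophils. Young MPP4 replicate 1 was the lowest array for 16 members (8.13% of all genes), among them Ndufs5, at 0.730 against 1.41 to 1.95 on the other arrays, and Ndufb6, at 2.13 against 2.68 to 3.16. The SD of its deviations from each member's mean over the 14 arrays was 0.233, against 0.0923 to 0.189 on the other arrays. The median SD of a member between replicates was 0.0682 in old MPP4, 0.119 in young MPP4, 0.100 in old MPP3 and 0.111 in young MPP3, beside 0.0440, 0.0770, 0.0780 and 0.0709 over all genes. Most members lay near the top of the ranking, which the scale stretches, and genes of like brightness were not compared.

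Differences of members between the array sets of young mice are given beside those for age and population. Their sizes cannot be ranked, because the sets came from clustering these same arrays and rest on fewer arrays. These sizes were not computed over all genes. The median absolute difference between sets over the 88 members was 0.149 in young MPP4 and 0.165 in young MPP3. It was 0.0737 for age in MPP4, 0.0865 for age in MPP3, 0.0646 between populations in old mice and 0.101 between populations in young mice, in means over more arrays. Without overlap, 9 members were higher on set 1 than on set 2 (13.5% of all genes) and 11 were lower (8.04%). The higher were Atp5a1, Atp5b, Cox7a2l, Cox8a, Cox8b, Ndufa8, Ndufaf7, Ndufc2 and Uqcrc2, and the lower were Atp5e, Atp5h, Atp5j, Atp5l, Cox5a, Cox5b, Cox7b, Ndufaf2, Ndufb6, Ndufs1 and Uqcrb. Ndufc2, for example, was at 3.83 to 3.94 on set 1 and 3.45 to 3.64 on set 2. Against the 3 young arrays of set 1, the 6 old arrays were higher without overlap for Cox7a2 and Ndufaf7 (1.63% of all genes) and lower for Cox4i2, Cox8a and Ndufa8 (2.70%). Against the 5 young arrays of set 2 they were higher for Atp5a1, Atp5b, Ndufaf7 and Uqcrc2 (5.62%) and lower for Atp5d, Atp5j, Ndufaf2 and Uqcrb (4.24%). Ndufaf7 was the only member on both lists, which restates that its old arrays lay above all its young arrays and adds nothing to it. Only 2 members were among the dim probe sets that defined the sets. Across the 88 members, the set difference in MPP4 and that in MPP3 had a Pearson r of 0.381 and a Spearman rho of 0.393 (r = 0.428 over all genes), as a description across genes that share their arrays. Since no old array was in set 2, set and age were partly confounded, and the age differences with the set as a term rest on 1 young MPP3 array and 2 young MPP4 arrays.

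**Figure D4:**
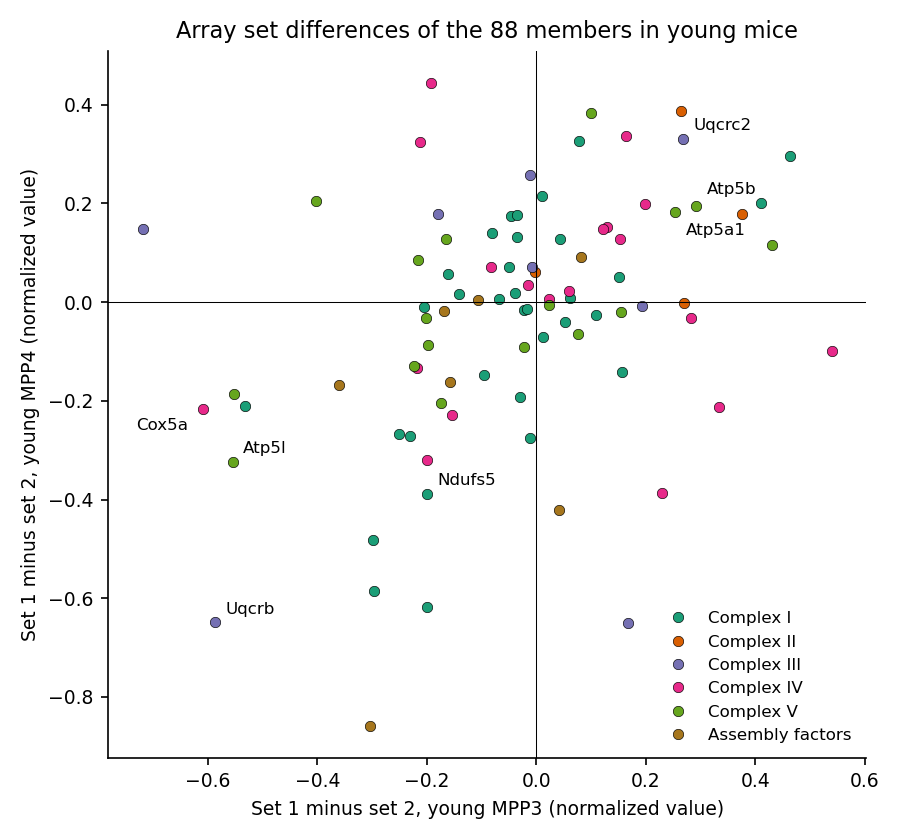
Difference between array set 1 and array set 2 in young MPP3 (horizontal axis, 1 array against 2) and young MPP4 (vertical axis, 2 arrays against 3) for each of the 88 members, in normalized value and coloured by complex. Uqcrb lies low in both (-0.587 and -0.648), and Atp5a1 lies above 0 in both (0.254 and 0.182).

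Genes around the complexes were taken as 4 further lists. None of their measured genes passed the adjusted threshold in any of the 5 contrasts, among 19 of 21 electron carriers and ubiquinone enzymes, 37 of 43 other assembly factors, 10 of 12 genes of ATP export and uncoupling and 20 of 22 genes of transcription and mitochondrial DNA. In the order of comparisons used below, differences above 0 made up 49.8%, 50.1%, 48.3% and 49.9% of all genes. At an unadjusted p under 0.05, 4.50%, 3.44%, 6.19% and 5.48% of all genes were higher. In the same order, 5.27%, 4.75%, 3.64% and 5.53% were lower. The counts that follow are of genes with a difference above 0, with those higher and lower at an unadjusted p under 0.05 in parentheses. Of the 19 electron carriers they were 10 (1 and 2) between old and young MPP4, 13 (4 and 0) between old and young MPP3, 9 (1 and 1) between the old populations and 12 (2 and 1) between the young ones. Of the 37 other assembly factors they were 24 (3 and 0) between old and young MPP4, 17 (0 and 2) between old and young MPP3, 22 (4 and 0) between the old populations and 16 (1 and 4) between the young ones. Of the 10 genes of ATP export and uncoupling they were 6 (1 and 1) between old and young MPP4, 5 (2 and 0) between old and young MPP3, 6 (1 and 0) between the old populations and 7 (2 and 0) between the young ones, and of the 20 genes of transcription and mitochondrial DNA 13 (1 and 0) between old and young MPP4, 5 (1 and 2) between old and young MPP3, 16 (5 and 0) between the old populations and 11 (0 and 1) between the young ones. Each gene named next had the smallest or next smallest p of its list in the comparison given. Etfa, a subunit of the flavoprotein that brings electrons from fat oxidation, was at 2.94, 3.01 and 2.91 in old MPP4, at 2.81, 2.80, 2.62, 2.76 and 2.72 in young MPP4, at 2.95, 2.91 and 2.92 in old MPP3 and at 2.73, 2.78 and 2.82 in young MPP3. Old arrays lay above young arrays in both populations, as for 0.454% of all genes. The differences were 0.214 in MPP4 (adjusted p = 0.323) and 0.152 in MPP3 (adjusted p = 0.488). Uqcc2, an assembly factor of complex III, was at 1.52 to 1.58 in old MPP3 and 1.71 to 1.81 in young MPP3 (adjusted p = 0.471). Bcs1l, which inserts the Rieske protein into complex III, was at 1.01 to 1.26 in young MPP4 and 0.789 to 0.930 in young MPP3, a difference of 0.294 (adjusted p = 0.151). Slc25a4, an ADP/ATP carrier, was at 2.53 to 2.79 in young MPP4 and 2.20 to 2.43 in young MPP3 (adjusted p = 0.178). In these 3 genes the groups named did not overlap. Of all genes, 8.04% were lower in old than in young MPP3 without overlap. Between the young populations, 3.74% were higher in MPP4 in this way. Yy1, whose site was searched in the promoters, was at 2.25 to 2.33 in old MPP3 and 2.47 to 2.77 in young MPP3 (adjusted p = 0.50). Twnk, the mitochondrial DNA helicase, was at 0.727 to 1.05 in old MPP4 and 0.443 to 0.595 in old MPP3 (adjusted p = 0.343).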

How the data were processed

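Each of the 14 samples was hybridised to a mouse Gene ST 1.0 array (Affymetrix). The values the authors deposited are in unit a score: RMA (version not stated) was followed by mapping of each array by rank onto an exponential distribution of rate 1. They were used as deposited. Of 22115 probe sets, 2135 not listed in the platform annotation and 744 with several symbols were left out, and 76 genes with more than 1 probe set kept their brightest on average.

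Groups were compared in limma (version 3.58.1, under R 4.3.3; lmFit and eBayes, two-sided, Benjamini-Hochberg over 19155 genes, threshold 0.05), each comparison on its own 2 groups and the difference between age differences on all 14 arrays. The code was tested on simulated data. Figures were drawn with matplotlib 3.10.9 in Python 3.11.15. The number of arrays limits the precision, and animals per array were not given, so p-values measure only the spread between these arrays.

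The members and gene lists were chosen with earlier results of these data known. Members named were drawn from those past the threshold, else the 2 per complex with the largest statistic in each contrast. The 2 highest and 2 lowest per complex and members with a known role were also drawn on. Some members that met these grounds are not described, for example Ndufaf3, Ndufaf6 and Atp5mpl. Others were named for an unadjusted p under 0.05. Members named for arrays without overlap or for an array that stood apart were chosen after their values were seen. The SAM test of the study was not run. Other fits are described at the end.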

Additional observations from a re-analysis of the deposited data

Results flagged for a closer look

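In the 5 young MPP4 arrays, 3 members had 1 array far from the others (gap to the nearest array over the whole range above 0.71). Ndufb6, an accessory subunit of complex I, was at 2.13 on young MPP4 replicate 1. Ndufa4l2 was at 0.222 on young MPP4 replicate 5, and Cox7b2 at 0.0309 on young MPP4 replicate 3, both dim genes. Chance flags about 1 in 20 groups, and such arrays were found for 3.41% of the members and 6.59% of all genes. None of the 6 complex means had such an array. Groups of 3 arrays were not tested in this way.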

How the results depend on the processing

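Besides the fit as reported, 10 other settings were tried and each of the 14 arrays was left out in turn. Array quality weights gave 4 members past the threshold for old minus young MPP4, 16 for MPP4 minus MPP3 in young mice and 5 for the difference between age differences, and 0 in the other 2 comparisons. The array set as a term gave 2 for MPP4 minus MPP3 in young mice. The other settings gave 0 members in each comparison that they could fit, and so did each fit with 1 array left out (lowest 0, highest 0). The cause was not tested. The median difference of the members between old and young MPP3 was -0.0780 without old MPP3 replicate 2. Between old and young MPP4 its sign turned with array weights (0.00468) and without old MPP4 replicate 1 (0.00249), and for MPP4 minus MPP3 of old mice with array weights (0.00527) and without old MPP3 replicate 2 (0.00785). For the difference between age differences, where the median was 0.00146, it turned without 5 of the 14 arrays in turn and without the arrays that had Xist signal. In each contrast, members with an unadjusted p under 0.05 and the 2 per complex with the largest statistic were followed over the settings. None of their differences changed sign, and other members were not followed in this way. Complex means were recomputed only with normal scores, with arrays centred on their medians, without the dimmest genes and with 1 array left out. There, the complex means reported without overlap kept the sign of their differences, whereas several of those with overlap changed it. Array quality weights, the array set as a term, the replicate number as a block and leaving out arrays with Xist signal were not tried on complex means. The age difference of Uqcrb in MPP3 was -0.0962 and that of Uqcrq in MPP4 -0.0757 with the array set as a term.

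Replicate numbers were not used to pair the arrays in the main fits. The correlations of same-numbered arrays, between populations or between ages, ran from -0.192 to 0.407. Between young MPP4 and young MPP3 they were 0.407, -0.148 and 0.178 for replicates 1, 2 and 3. Xist was at 3.49 and 3.52 on replicate 1 of these groups. Whether same-numbered arrays came from the same mice was not given. With the replicate number as a block, 0 members passed in each comparison. The array set could not be a term between the old populations, whose arrays were all in set 1. Leaving out the dimmest 1 in 3 genes kept 85 members of 12770 genes. Signal over background could not be judged from rank-based values.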
